A study of Mus musculus with 4 samples.

Results

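The collagen gene family was followed across the tissues of the injured mouse Achilles tendon. Its members were the genes whose symbol is Col, a number, the letter a and a second number, and 44 of the 32285 measured genes carried such a symbol. Of these, 42 had at least 50 unique molecular identifiers (UMIs, counts of captured RNA molecules) summed over the 4 sections and are described here. Just inside that minimum were Col6a4 with 99 UMIs, Col25a1 with 125 and Col4a3 with 138, and just outside were Col19a1 and Col10a1 with 26 each.

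RNA was captured on Visium arrays, grids of barcoded spots that each cover a small patch of tissue and can hold several cells. The WT group had 2 sections from TrkA WT mice whose treatment is labelled control, and the F592A group had 2 sections from TrkA F592A mice given 1NMPP1. The kinase TrkA receives nerve growth factor on sensory and sympathetic nerve cells, and its F592A form can be inhibited by the compound 1NMPP1. The groups therefore differ in genotype and in drug at once, and whether WT mice were also dosed is not stated in the labels. All mice, male and female and 12 weeks old, had a 0.5 mm punch made in the Achilles tendon about 2 mm from the heel bone and were sampled after 14 days. Tissue of 4 mice was pooled per genotype, the labels tie no section to an animal and restrict the F592A allele to no cell type, and no uninjured section was analysed here. The p-values between the groups therefore measure the spread between sections, which may be technical. Where spots of the same section are compared, p-values measure how that difference varies from section to section, which may be technical too.

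Collagens are triple helices of 3 chains, each chain made from its own gene. The fibrillar collagens (types I, II, III, V, XI, XXIV and XXVII) form the load-bearing fibrils, type I is the main protein of tendon, type III accompanies it in young scar and loose connective tissue, and types II and XI build the fibrils of cartilage and fibrocartilage. FACIT collagens (types IX, XII, XIV, XVI, XX and XXII) sit on the surface of fibrils, type IV forms the sheets of basement membranes, type VI forms beaded filaments around cells, type VII anchors the epidermis to the dermis, and other members span the cell membrane or release fragments from vessel walls.

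The sections held 42911141 (WT 1), 30154873 (WT 2), 43957617 (F592A 1) and 37089208 (F592A 2) UMIs over 2027 to 3047 spots, and spots with at least 500 UMIs were kept. Spots were sorted into 10 classes by their highest standardised score over lists of marker genes, none of them a collagen, with a score of at least 1 and at least 5 UMIs from the list. A class is thus a range of a score and not a cell type, and the 5 UMIs are easier to reach in deep spots. Of 795 tendon-list spots 293 lay within 0.25 of that lower limit, as did 851 of 1797 muscle-list spots and 47 of 499 nerve-list spots, and the median wound fibroblast score within tendon-list spots was 0.79. For 2 classes the list's name was not used. The class from the adipose list was led by Scd1 and Car3 together with Fa2h and Elovl4 and had a median muscle score of 0.89. The class from the cartilage list was led by Sox9 and Acan, both of that list, but its other leading genes, among them Slpi, Aqp5, Inhba, Ptgs2 and Moxd1, were not, and Matn1, Cnmd and Snorc were at or near 0. They are called Scd1- and Car3-led and Sox9- and Acan-led spots. WT 2 stood apart in its makeup, with 430 tendon-list spots against 76 to 159 in the other sections and 54 muscle-list spots against 497 to 652.

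Collagen transcripts were 10.7% (WT 1), 14.0% (WT 2), 11.3% (F592A 1) and 11.4% (F592A 2) of all UMIs. The highest shares were in tendon-list spots (13.2% to 16.8% over the 4 sections), Sox9- and Acan-led spots (13.2% to 16.6%) and wound-fibroblast-list spots (13.8% to 16.0%), and the lowest in muscle-list spots (1.52% to 5.34%). Fibrillar chains were 90.8% to 92.2% of collagen UMIs in whole sections and between 88.5% and 93.1% in every class, so the classes differed far more in the amount of collagen RNA than in the share of its fibrillar part. Beaded type VI chains were 4.59% to 5.30% of collagen UMIs, FACIT chains 1.88% to 2.48% and basement membrane chains 0.523% to 0.752%. Basement membrane chains were 1.38% to 2.13% of the collagen UMIs in vessel-list spots, and the membrane-spanning chains 0.621% to 2.69% in epidermis-list spots against 0.0363% to 0.124% in whole sections.

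The 6 members with the most UMIs were Col1a1 (7309532), Col1a2 (5151499), Col3a1 (2923472), Col5a2 (528855), Col6a2 (352812) and Col5a1 (342591). This is an order of counts, not of transcripts per length. Col1a1 and Col1a2, the 2 chains of type I collagen, were also the smoothest across the tissue together with Col3a1. Moran's I, a measure of how alike each spot is to its 6 nearest neighbours, with 1 for perfectly smooth and 0 for no spatial order, averaged 0.87 for Col1a1, 0.86 for Col3a1 and 0.85 for Col1a2 over the 4 sections. It was lowest for Col20a1 (0.0071) and Col4a3 (0.0073), each with under 250 UMIs in all. Moran's I falls with sparse counts, so it describes the maps and does not rank the genes' biology.

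**Figure D1:**
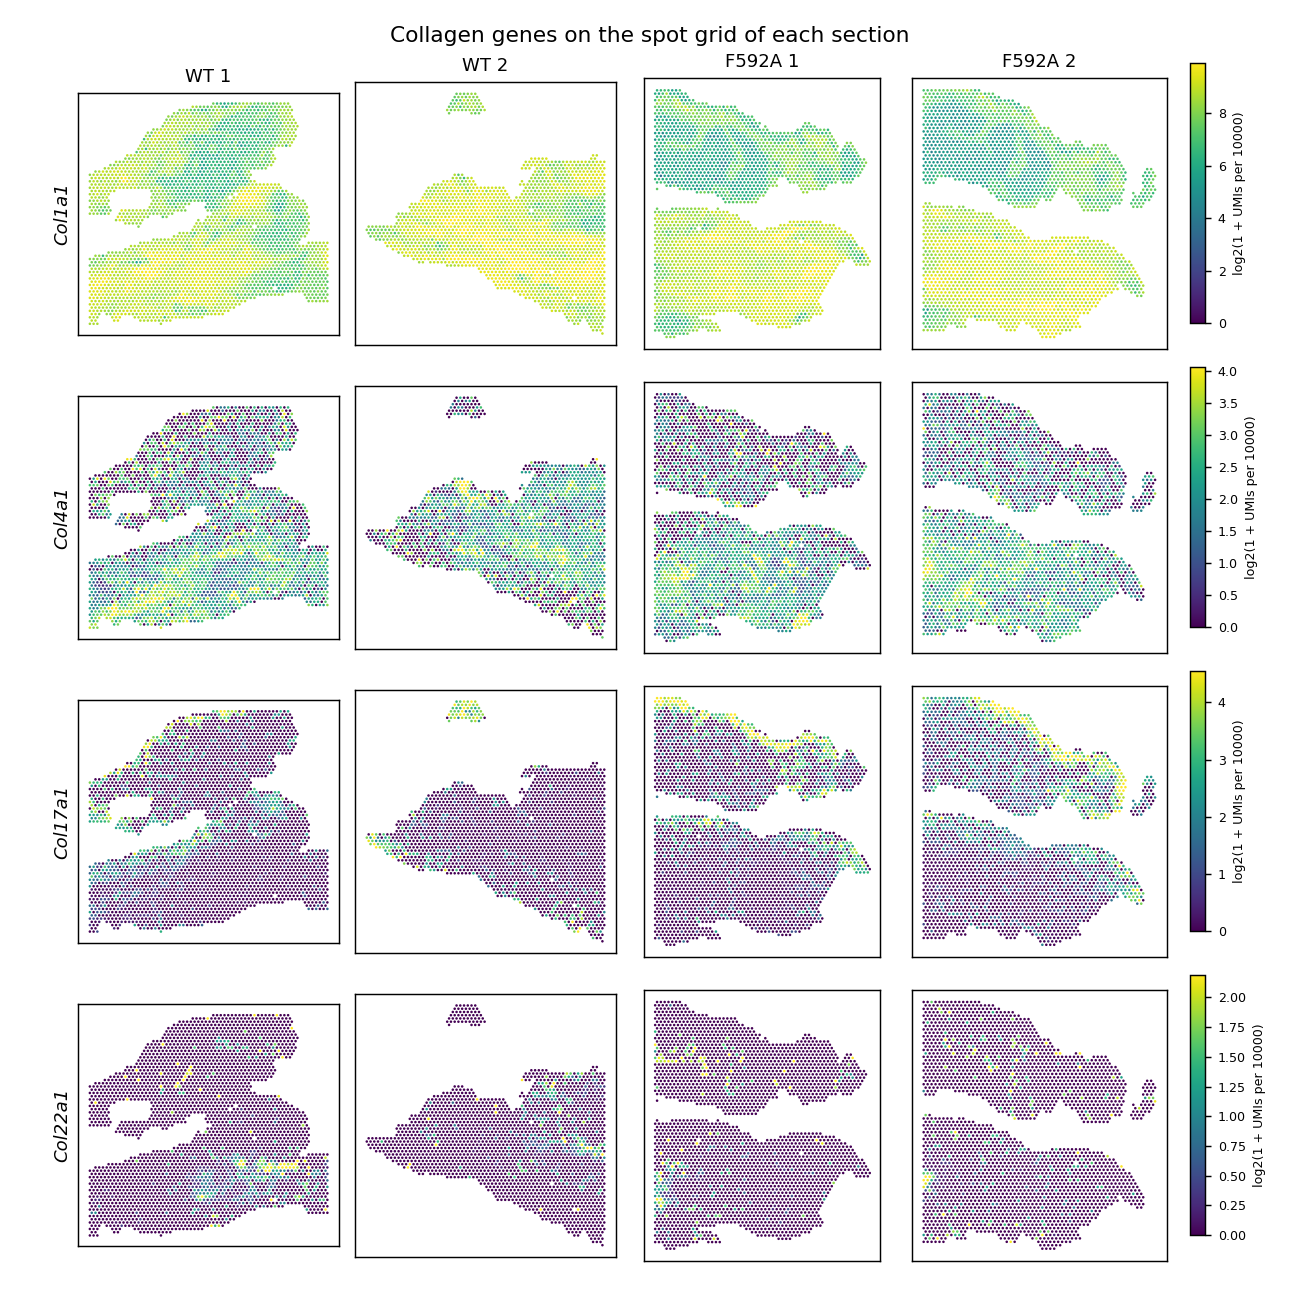
Each dot is a Visium spot at its array position, coloured by log2(1 + UMIs per 10000) of Col1a1, Col4a1, Col17a1 or Col22a1, with the 4 sections in columns. Col1a1 is high over most of the connective tissue, Col17a1 lies in narrow bands at the tissue edge, Col22a1 in small patches, and Col4a1 is scattered. Each gene has its own colour scale, cut at high values.

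Each spot class was compared with all other spots of the same sections by edgeR's quasi-likelihood test on UMI sums, with the section as a block (n = 4 sections). Values below are CPM from UMI sums after TMM scaling in edgeR, changes are log2 fold changes ± SE, and a call is a Benjamini-Hochberg adjusted p under 0.05 over all genes tested. A spot's value mixes the number of cells of a type and the RNA in each, and these cannot be told apart. Of the 42 members, 40 were higher in at least 1 class and 39 lower in at least 1, and Col25a1 and Col6a4 were called in none.

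In tendon-list spots 19 members were higher and 11 lower of 42, with a median of 0.31, where 23.5% of all genes tested were called (11.2% higher and 12.3% lower). Type I rose, with Col1a1 up by 0.53 ± 0.08 and Col1a2 by 0.59. The leading member was Col22a1, a FACIT chain known from the muscle-tendon junction, at 88.5, 31.7, 49.0 and 130 CPM (WT 1, WT 2, F592A 1 and F592A 2) against 10.5 to 20.6 CPM in other spots (2.20 ± 0.20, edgeR adjusted p = 0.00013). It was higher in every section, and its range across sections was wide. Col11a2, a fibrillar chain of type XI, stood at 166, 236, 42.4 and 24.7 CPM against 19.6 to 61.0 (1.65 ± 0.29, adjusted p = 0.0037), and Col2a1, the single chain of type II, at 55.2, 74.0, 13.8 and 15.4 CPM against 10.5 to 28.6 (1.22 ± 0.28, adjusted p = 0.013). For both genes the difference was large in the WT sections and small in the F592A sections. Col2a1 no longer passed without WT 2 (1.10). All 19 were lower in epidermis-list spots. Below the rest in tendon-list spots were Col17a1 (-2.68), Col4a6 (-2.18) and Col7a1 (-1.65), chains of epithelial basement membrane.

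Wound-fibroblast-list spots had 15 members higher and 13 lower of 42, where 39.2% of all genes were called (17.4% higher and 21.8% lower). These spots are defined by genes of activated repair fibroblasts such as Postn and Tnc. Col12a1, a FACIT chain on tendon and wound fibrils, led with 3476, 2580, 2526 and 2498 CPM against 1304 to 1517 (1.00 ± 0.11, adjusted p = 6.8e-05), and no section of either kind of spot overlapped. Col5a2, which controls the diameter of type I fibrils, stood at 6424, 5979, 5231 and 5114 CPM against 2547 to 3582 (0.92 ± 0.11, adjusted p = 0.00014), and its partner Col5a1 rose by 0.82. Col9a1 was at 8.84, 11.9, 3.80 and 3.62 CPM against 2.54 to 3.80 (1.00 ± 0.32, adjusted p = 0.032). That difference came from the WT sections, and it no longer passed without WT 1 (0.63) or without WT 2 (0.80). Col1a1 rose by 0.47 and Col1a2 by 0.34 here, Col5a3, the remaining type V chain, was at 0.39 and did not pass (adjusted p = 0.056), and Col4a1 (-0.59) and Col4a2 (-0.69) fell. The fibrillar Col24a1, a low chain known from bone, rose by 0.52 from 6.86 to 10.4 CPM in the rest to 12.8, 11.9, 14.2 and 9.64 CPM.

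Sox9- and Acan-led spots had 16 members higher and 6 lower of 41, where 19.1% of all genes were called (8.85% higher and 10.3% lower). The chains that make cartilage fibrils led. Col9a3 was at 5.70, 19.3, 18.1 and 20.3 CPM against 1.92 to 4.33 (2.61 ± 0.29, adjusted p = 0.00079), Col2a1 at 40.5, 97.2, 37.6 and 35.4 against 5.91 to 37.0 (1.80 ± 0.20, adjusted p = 0.00076), and Col9a2 at 4.15, 11.1, 5.07 and 6.05 against 0.986 to 3.90 (1.49 ± 0.34, adjusted p = 0.018). All 3 were higher than the rest of their own section in every section, although Col9a2 in WT 1 exceeded the rest by little, and Col9a2 no longer passed without WT 2 (1.47), F592A 1 (1.53) or F592A 2 (1.11). Col11a1 rose by 1.44, Col11a2 by 1.12 and Col12a1 by 1.08 in these spots. Of the 7 cartilage list genes, which chose these spots, Acan was at 610 to 756 CPM, Sox9 at 357 to 500, Matn3 at 22.3 to 66.7 and Hapln1 at 17.9 to 90.1, while Cnmd and Snorc were at 0 to 2.00 CPM and Matn1 had 0 UMIs in all sections. The hypertrophic cartilage chain Col10a1 had 26 UMIs over all spots of the 4 sections.

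Tendon-list and Sox9- and Acan-led spots shared 12 members called higher against the rest: Col1a1, Col1a2, Col2a1, Col5a1, Col5a2, Col11a1, Col11a2, Col12a1, Col16a1, Col6a1, Col6a2 and Col8a2. Calls in opposite directions were seen for 6 members: Col22a1 (2.20 and -2.06), Col4a2, which was higher in tendon-list spots, Col27a1, which was lower there, and Col9a1, Col9a2 and Col9a3 (between -1.20 and -0.85 in tendon-list spots, and between 1.15 and 2.61 in the other class). The difference between the 2 classes was not itself tested.

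Sheath-fibroblast-list spots, defined by genes of the loose tissue around tendon such as Pi16 and Prg4, had 7 members higher and 5 lower of 41, where 15.9% of all genes were called (5.77% higher and 10.1% lower). Col5a3 was at 503, 457, 687 and 351 CPM against 209 to 321 (1.00 ± 0.09, adjusted p = 0.00039). The type VI chain Col6a6 was at 28.5, 26.2, 10.2 and 17.1 CPM against 8.03 to 19.9 (0.76 ± 0.16, adjusted p = 0.012), and the FACIT chain Col14a1 at 558, 800, 424 and 391 CPM against 279 to 389 (0.71 ± 0.12, adjusted p = 0.0047). Each was higher in these spots in every section. Col3a1 was at 25889, 26954, 29200 and 27593 CPM against 15732 to 21223 (0.63), and type I was at 0.07 for both chains and did not pass.

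Macrophage-list spots had 7 members higher and 12 lower of 42, where 28.6% of all genes were called (13.1% higher and 15.4% lower), and shared 4 of their higher members with the sheath-fibroblast-list spots: Col3a1 (0.59), Col5a3 (0.34), Col14a1 and Col6a6. Their leaders were Col6a5 (6.12, 3.93, 4.19 and 4.83 CPM against 0.827 to 2.57, 1.54 ± 0.27, adjusted p = 0.0038), Col6a6 (49.9, 26.8, 16.4 and 22.2 against 6.52 to 14.7, 1.45 ± 0.11, adjusted p = 5.2e-05) and Col14a1 (554, 755, 660 and 705 against 235 to 392, 1.24 ± 0.10, adjusted p = 8.3e-05). No section of these spots fell into the range of the rest. The sheath list had the second highest score in this class, with a median of 0.81, and its part in these differences was not tested.

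Vessel-list spots had 5 members higher and 15 lower of 42, where 8.51% of all genes were called (4.64% higher and 3.87% lower), and 4 of the 5 higher members are chains of basement membranes. Col13a1, a membrane-spanning chain, was at 6.36, 22.8, 33.8 and 10.4 CPM against 4.29 to 6.36 (1.69 ± 0.35, adjusted p = 0.011), with WT 1 close to the rest, and it did not pass without WT 2 (1.56). Col18a1, the source of endostatin, was at 381, 454, 598 and 360 CPM against 165 to 222 (1.26 ± 0.09, adjusted p = 8.8e-06). Col4a2, one of the 2 chains of the common basement membrane heterotrimer, was at 566, 624, 807 and 518 CPM against 262 to 282 (1.19 ± 0.11, adjusted p = 4.6e-05), and its partner Col4a1 at 937, 1010, 1251 and 843 against 442 to 467 (1.14 ± 0.10). These 3 genes stood clear of the rest in every section. Col15a1, a relative of Col18a1, rose by 0.68.

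Col4a1 and Col4a2 lie head to head on chromosome 8, with annotated starts 21 bases apart on opposite strands, so the RefSeq promoter windows (250 bases before to 50 after each start, build GRCm38.p6) share 78 bases. They are shown because both genes were called higher in tendon-list and vessel-list spots and lower in wound-fibroblast-list and epidermis-list spots. Other calls were not shared. Col4a1 alone was called higher in macrophage-list spots and lower in muscle-list and Scd1- and Car3-led spots, and Col4a2 alone lower in Sox9- and Acan-led spots. Col4a1 is at chr8:11312777-11313076 on the minus strand and Col4a2 at chr8:11312555-11312854 on the plus strand, each written 5′ to 3′ along its gene, with capitals for matches on either strand to the GC box, which reads GGGCGG. Capitals also mark the CCAAT box, which reads CCAAT. The TATA box searched reads TATAAA. The SOX-type site searched reads AACAAT.
Col4a1: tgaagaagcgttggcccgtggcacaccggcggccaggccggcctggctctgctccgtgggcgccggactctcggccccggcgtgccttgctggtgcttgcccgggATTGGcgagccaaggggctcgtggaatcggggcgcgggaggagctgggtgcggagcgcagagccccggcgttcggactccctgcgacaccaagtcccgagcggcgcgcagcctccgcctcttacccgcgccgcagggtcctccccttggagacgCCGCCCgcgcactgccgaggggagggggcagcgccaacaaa
Col4a2: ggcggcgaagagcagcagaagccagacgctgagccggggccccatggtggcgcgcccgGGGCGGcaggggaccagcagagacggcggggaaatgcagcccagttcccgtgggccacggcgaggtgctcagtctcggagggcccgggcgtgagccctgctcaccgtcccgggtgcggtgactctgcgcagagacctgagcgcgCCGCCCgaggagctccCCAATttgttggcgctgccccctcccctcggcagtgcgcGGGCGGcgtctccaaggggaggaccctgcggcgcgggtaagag
The Col4a1 window held 1 GC box and 1 CCAAT, and the Col4a2 window 3 GC boxes and 1 CCAAT. Over all 32851 RefSeq windows 35.7% hold a GC box, 37.4% a CCAAT, 13.6% TATAAA and 10.7% AACAAT. A match is a description of letters and not evidence of a bound factor, and 33 of the 42 members had a window.

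The ratio of Col4a1 to Col4a2 UMIs ran from a mean of 1.36 in epidermis-list spots to 1.88 in Sox9- and Acan-led spots, a 1.38-fold range. The 4 sections of Sox9- and Acan-led spots (1.86 to 1.93) did not overlap those of muscle-list (1.37 to 1.49) or epidermis-list spots (1.19 to 1.54). Col1a1 to Col1a2 ranged 1.20-fold over the classes (1.27 in epidermis-list to 1.52 in wound-fibroblast-list spots) and Col5a1 to Col5a2 1.23-fold. Col12a1 to Col14a1, 2 FACIT chains of dense and of looser tissue, ran from 1.79 in macrophage-list spots to 14.0 in Sox9- and Acan-led spots, a 7.81-fold range, with 6.90 in tendon-list and 2.30 in sheath-fibroblast-list spots. Across single spots Col1a1 and Col1a2 had Spearman correlations of 0.91 to 0.96 in the 4 sections (2024 to 3043 spots), Col5a1 and Col5a2 of 0.57 to 0.83, Col4a1 and Col4a2 of 0.30 to 0.36, and Col12a1 and Col14a1 of 0.13 to 0.45. Spots of a section share its library and differ in depth, so these coefficients are descriptions.

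**Figure D2:**
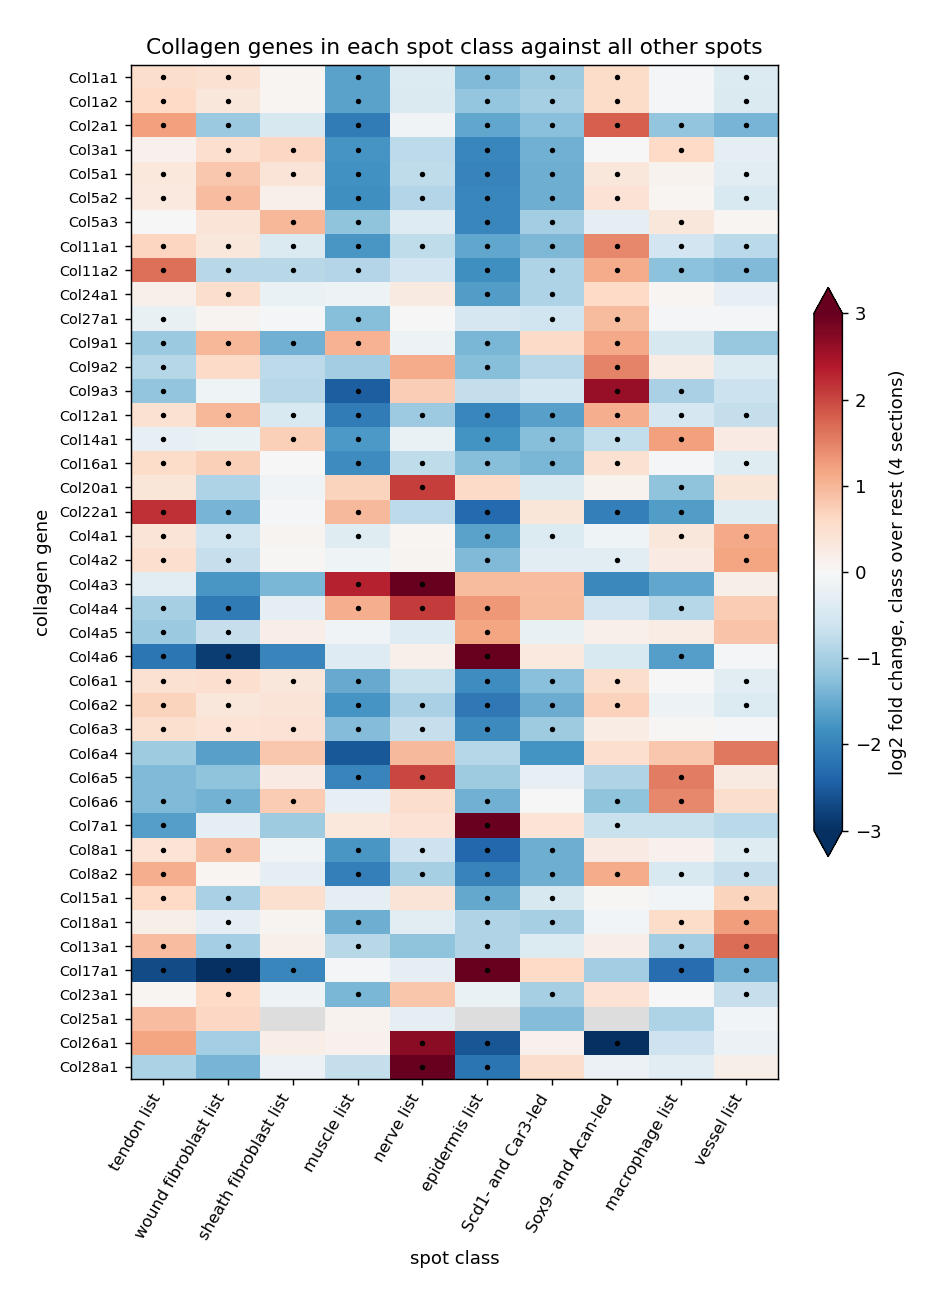
Rows are the 42 collagen genes by family, columns the 10 spot classes, and colour the log2 fold change of the class over all other spots (4 sections, scale cut at 3). A dot marks an edgeR adjusted p under 0.05, and grey was not tested. Most fibrillar chains are red in the tendon, wound fibroblast and Sox9- and Acan-led columns, except that Col2a1 and Col11a2 are blue in wound fibroblast, and nearly all are blue in the muscle, epidermis and Scd1- and Car3-led columns, while Col4a6, Col7a1 and Col17a1 are red in epidermis and blue in tendon.

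Epidermis-list spots had 5 members higher and 29 lower of 41, where 49.8% of all genes were called (24.5% higher and 25.3% lower). The 5 are Col17a1, Col7a1 and the type IV chains Col4a4, Col4a5 and Col4a6. Col17a1, the hemidesmosome chain of basal keratinocytes, was at 416, 1035, 1150 and 1003 CPM against 16.1 to 55.9 (4.88 ± 0.34, adjusted p = 1.8e-06). Col4a6 was at 16.2, 23.7, 33.8 and 20.3 CPM against 0.747 to 2.07 (4.13 ± 0.36, adjusted p = 5.8e-06), and the anchoring fibril chain Col7a1 at 48.5, 68.0, 93.0 and 58.1 against 5.19 to 13.5 (2.98 ± 0.29, adjusted p = 1.0e-05). All 3 stood far above the rest in every section. Col4a5 rose by 1.18 and Col4a4 by 1.31, the latter in 3 of 4 sections, while Col4a1 (-1.60) and Col4a2 (-1.31) fell. Type IV chains thus took both directions in these spots. Col4a4 was also called higher in muscle-list and nerve-list spots, and Col4a1 and Col4a2 were among the 29 members lower here. The starts of Col4a5 and Col4a6 are 1343 bases apart on chromosome X.

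The promoter windows of the 2 leading epidermal members follow, with the same capitals. Col17a1 is at chr19:47691993-47692292 and Col4a6 at chrX:141474027-141474326, both on the minus strand of GRCm38.p6.
Col17a1: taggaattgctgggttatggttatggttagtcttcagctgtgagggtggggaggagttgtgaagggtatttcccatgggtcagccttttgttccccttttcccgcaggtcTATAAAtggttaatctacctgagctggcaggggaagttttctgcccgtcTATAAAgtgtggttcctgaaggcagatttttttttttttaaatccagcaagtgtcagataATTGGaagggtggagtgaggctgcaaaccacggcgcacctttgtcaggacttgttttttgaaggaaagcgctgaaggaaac
Col4a6: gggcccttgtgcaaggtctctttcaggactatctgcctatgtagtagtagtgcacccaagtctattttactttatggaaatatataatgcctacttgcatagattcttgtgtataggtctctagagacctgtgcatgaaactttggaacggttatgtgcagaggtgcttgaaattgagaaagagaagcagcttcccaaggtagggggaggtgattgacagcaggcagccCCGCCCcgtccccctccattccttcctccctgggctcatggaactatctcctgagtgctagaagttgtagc
The Col17a1 window held 2 TATAAA and 1 CCAAT, and the Col4a6 window 1 GC box.

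Nerve-list spots had 6 members higher and 9 lower of 42, where 5.07% of all genes were called (3.26% higher and 1.81% lower). All 6 had few UMIs, and 3 of them were higher in every section: Col4a3 at 3.92, 8.88, 13.9 and 2.22 CPM against 0.538 to 1.01 (3.00 ± 0.62, adjusted p = 0.0040), Col4a4 at 12.5, 14.2, 13.9 and 24.4 against 2.84 to 5.17 (2.09 ± 0.36, adjusted p = 0.00054) and Col20a1 at 3.56, 8.88, 11.6 and 6.66 against 1.10 to 2.40 (2.09 ± 0.54, adjusted p = 0.023). The Col4a3 and Col20a1 values of F592A 2 rested on very few UMIs, so their being higher in that section is uncertain. Col20a1 did not pass without WT 2 (2.16), F592A 1 (1.70) or F592A 2 (1.97). Col28a1, known from glia of peripheral nerve, had the largest change (3.51 ± 0.64, adjusted p = 0.0011) with 18.2, 5.33, 9.29 and 0 CPM against 0.538 to 0.884. It was at 0 in the 52 nerve-list spots of F592A 2, so it was higher in 3 of 4 sections. Col26a1 (2.72) and Col6a5 (2.01) were also higher in 3 of 4.

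Muscle-list spots had 4 members higher and 24 lower of 42, where 55.6% of all genes were called (25.6% higher and 30% lower), with a median of -1.23. Col1a1 was at 15848, 25427, 12350 and 7471 CPM against 38762 to 53733 (-1.61). Only 2 of the higher members rose in every section: Col4a4 at 5.06, 9.11, 5.35 and 10.2 CPM against 2.41 to 4.15 (1.08 ± 0.27, adjusted p = 0.0034) and Col22a1 at 29.5, 25.5, 54.2 and 25.4 against 10.0 to 26.4 (0.96 ± 0.30, adjusted p = 0.015). Col22a1 overlapped the range of the rest and did not pass without F592A 1 (0.29). Col4a3 (2.30) and Col9a1 (1.05) were higher in 3 of 4 sections. Col22a1 was therefore called higher in both tendon-list and muscle-list spots, and lower in epidermis-list, macrophage-list, wound-fibroblast-list and Sox9- and Acan-led spots. In Scd1- and Car3-led spots 0 of 42 members were called higher by edgeR, and 1 under RLE scaling, while 23 were lower, where 32.6% of all genes were called (15.8% higher and 16.8% lower).

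Ratios within chain pairs were then set between the groups. Col3a1 to Col1a1 was 0.364 and 0.298 in the WT whole sections and 0.517 and 0.421 in the F592A sections, so both F592A sections lay above both WT sections. The mean log2 difference was 0.50 (SD 0.20 in WT and 0.21 in F592A, n = 2 each), with p = 0.33 by an exact two-sided permutation test, the smallest that 2 against 2 can give, and 0.467 after adjustment over 7 ratios. The same order of sections was seen in 7 of 10 spot classes, tendon-list spots among them (0.300 and 0.242 against 0.392 and 0.335), and the groups overlapped in the other 3. Col1a1 to Col1a2 was 1.54 and 1.42 in WT against 1.38 and 1.35 in F592A, a log2 difference of -0.12, with both F592A sections below both WT sections in 7 of 10 classes. The classes come from the same 4 sections and are not independent. Col6a3 to Col6a1 was 0.779 and 0.670 against 0.809 and 0.908, Col5a1 to Col5a2 0.617 and 0.574 against 0.668 and 0.735, and Col6a1 to Col6a2 0.966 and 0.815 against 0.811 and 0.774, each again without overlap and at p = 0.33 in the exact permutation test. Col4a1 to Col4a2 (1.63 and 1.68 against 1.70 and 1.66) and Col12a1 to Col14a1 (5.79 and 3.73 against 4.64 and 4.85) overlapped.

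**Figure D3:**
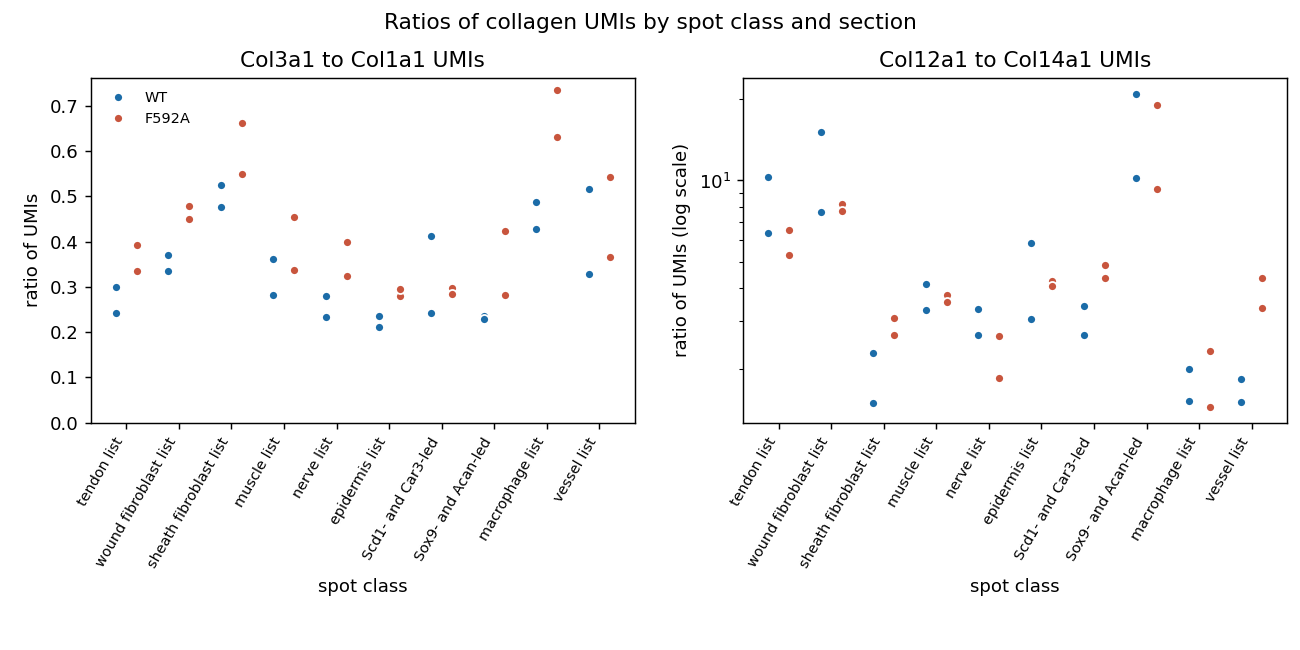
Ratio of Col3a1 to Col1a1 UMIs (left, linear axis) and of Col12a1 to Col14a1 UMIs (right, log axis) in each spot class, 1 point per section, WT in blue and F592A in red. Both F592A points lie above both WT points for Col3a1 to Col1a1 in 7 of 10 classes, and Col12a1 to Col14a1 differs more between classes than between groups.

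Between the groups, whole sections gave no collagen call: edgeR called 0 of 42 members at an adjusted p under 0.05, where it called 0.0795% of all genes (13 of 16347), 0.0306% higher and 0.0489% lower. At an unadjusted p under 0.05 there were 10 members, where 11.8% of all genes were, and DESeq2 called 2, Col2a1 and Col11a1, both lower in F592A, where it called 2.58% of all genes. The members' log2 fold changes of F592A over WT were positive for 20 and negative for 22, with a median of -0.12 against -0.00 over all genes. Without WT 1 the calls were 1 higher and 3 lower (Col17a1, and Col2a1, Col11a2 and Col8a2), and without WT 2 again 1 and 3 (Col9a3, and Col11a2, Col25a1 and Col6a6), where 2.1% and 2.31% of all genes were called.

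Among fibrillar chains, Col1a1 was at 44282 and 62979 CPM in WT and 43125 and 43762 in F592A (-0.30 ± 0.39), and Col1a2 at 28750 and 44493 against 31299 and 32534 (-0.20 ± 0.37). WT 2, the section richest in tendon-list spots, was the high one for both, and without it Col1a2 was positive (0.16). Col3a1 was at 16136 and 18797 against 22308 and 18434 (0.22 ± 0.29), Col5a1 at 2060 and 2219 against 2437 and 2157, and Col5a2 at 3340 and 3870 against 3648 and 2936. These 3 overlapped between groups. The cartilage-type fibrillar chains did not overlap: Col2a1 was at 18.9 and 43.4 against 13.8 and 11.0 CPM (-1.32 ± 0.38, edgeR adjusted p = 0.31), Col11a1 at 611 and 806 against 501 and 404 (-0.65 ± 0.19, adjusted p = 0.32), and Col11a2 at 49.0 and 117 against 24.2 and 20.4 (-1.89 ± 0.40, adjusted p = 0.21). Col24a1 was at 8.11 and 8.83 against 11.3 and 9.17.

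The 8 FACIT chains ran from -0.94 to 0.95, with 7 negative and 6 without overlap between the groups. Of the 8, 3 were at an unadjusted p under 0.05, where 11.8% of all genes were. Of all 42 members, 17 were without overlap. Of the arrangements of 2 against 2 sections, 33.3% leave groups apart. The share over all genes was not counted, so these counts are not read as a result about collagens. Col12a1 was at 1748 and 1642 against 1580 and 1438 CPM (-0.17), Col14a1 at 302 and 440 against 341 and 296 (-0.22) and Col22a1 at 31.4 and 18.5 against 14.9 and 24.9. The type IX chains, which sit on cartilage fibrils, took both signs: Col9a3 was at 2.14 and 3.90 against 6.49 and 5.08 CPM (0.95 ± 0.33, adjusted p = 0.37), Col9a2 at 3.77 and 4.66 against 2.51 and 1.86 (-0.94 ± 0.26, adjusted p = 0.28) and Col9a1 at 3.81 and 4.52 against 3.66 and 3.51 (-0.21), all without overlap. Of the 6 type IV chains, Col4a1 was at 481 and 469 against 497 and 470 CPM (0.02 ± 0.12) and Col4a2 at 296 and 280 against 293 and 284 (0.00 ± 0.11). The other 4, all low, ran from -0.14 (Col4a3) to 0.89 (Col4a6), and the Col4a6 values did not overlap (1.95 and 0.959 against 2.28 and 3.20). Col15a1 stood at 161 and 174 against 151 and 199, and Col18a1 at 193 and 180 against 236 and 175. The beaded chains Col6a1 (1741 and 2290 against 1987 and 1743), Col6a2 (1801 and 2808 against 2451 and 2253) and Col6a3 (1356 and 1533 against 1607 and 1583) had changes between -0.11 and 0.14. Col17a1 was at 45.5 and 26.7 against 70.4 and 119 CPM (1.39 ± 0.33, adjusted p = 0.25). The share of epidermis-list spots was 14.9% and 4.45% in WT against 14.9% and 17.6% in F592A, alike in WT 1 and F592A 1. The part of that share in the Col17a1 values was not tested.

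**Figure D4:**
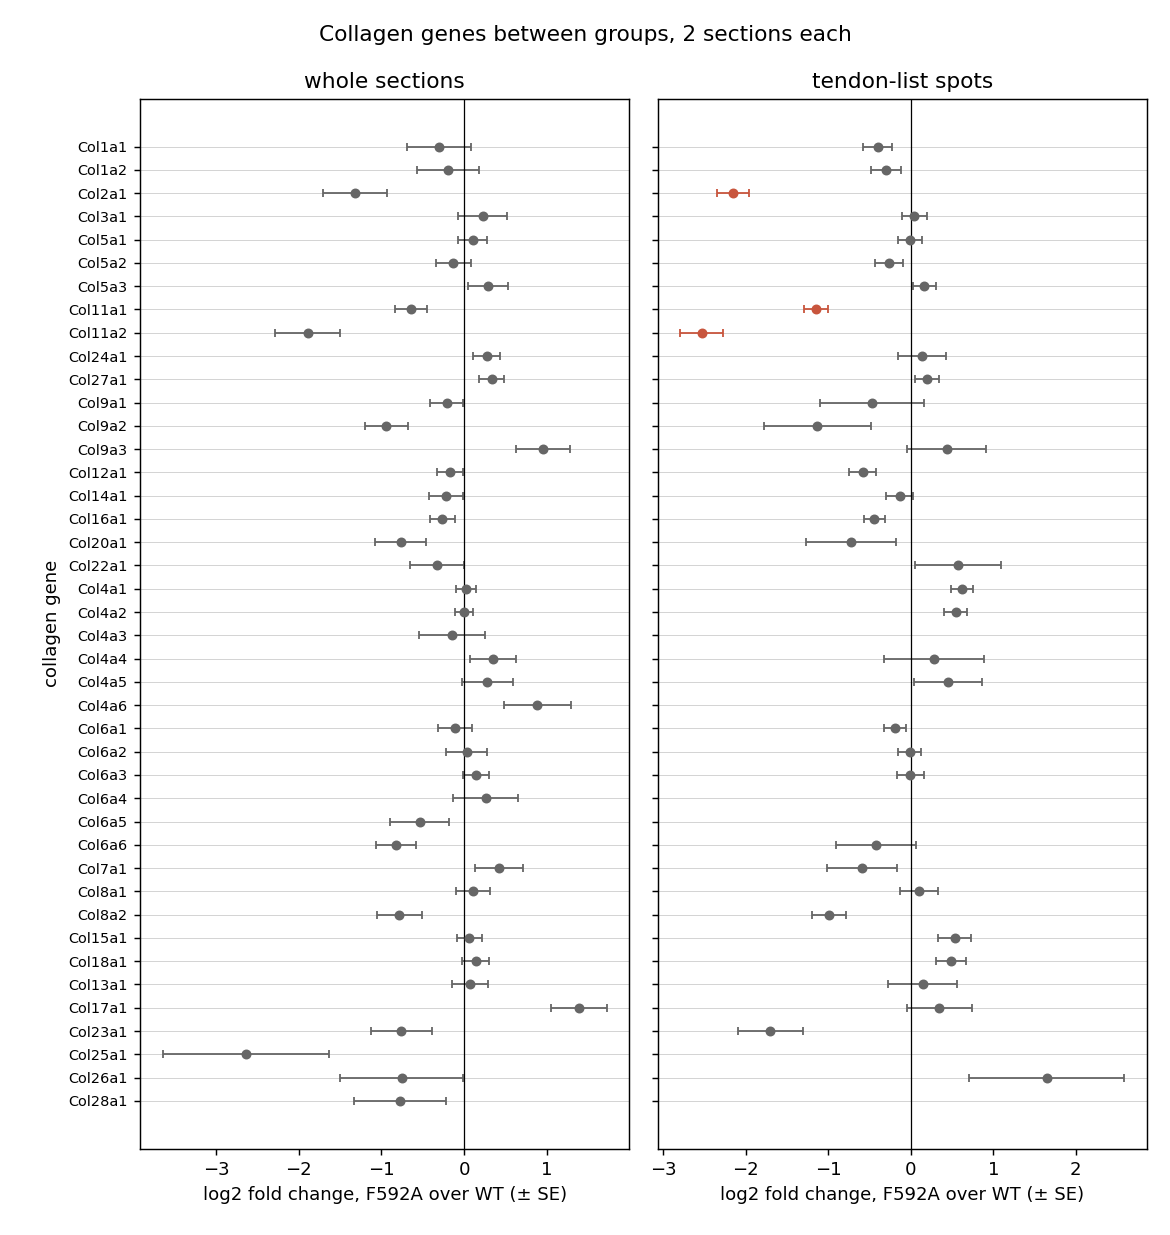
Log2 fold change of F592A over WT for each collagen gene with its SE (edgeR, 2 sections per group), in whole sections (left) and in tendon-list spots (right). The 3 red points are the genes past an adjusted p of 0.05, Col2a1, Col11a1 and Col11a2 in tendon-list spots, and genes with no point on the right were too low to be tested.

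Within tendon-list spots 3 members were lower in F592A and 0 higher, of 36 tested, where edgeR called 0.255% of all genes (33 of 12924, 0.0851% higher and 0.17% lower) and the members' median was -0.01. The 3 are the fibrillar chains of types II and XI, which assemble into the same fibrils in cartilage and fibrocartilage. Col2a1 was at 53.4 and 71.2 CPM in WT and 13.4 and 15.0 in F592A, and changed by -2.15 ± 0.19 (edgeR adjusted p = 0.014). Col11a2 was at 161 and 227 against 41.1 and 24.1 (-2.53 ± 0.26, adjusted p = 0.015), and Col11a1 at 1144 and 1091 against 544 and 462 (-1.15 ± 0.14, adjusted p = 0.024). The groups were far apart for all 3 genes, while the smallest sums were 41 UMIs for Col2a1 and 66 for Col11a2, both in F592A 2. Without F592A 2 Col11a1 did not pass (-1.04), and the number of members called was 2. It was 9 without WT 1 and 7 without WT 2, where 2.55% and 2.44% of all genes were called. Under the block by replicate number the number of members called was 5 (1.67% of all genes), adding Col8a2 and Col23a1. DESeq2 called 6 (1.04% of all genes), adding Col8a2, Col23a1 and, higher, Col4a1.

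The remaining fibrillar chains of tendon-list spots were closer. Col1a1 was at 62488 and 78202 against 53088 and 53529 CPM (-0.40 ± 0.17, adjusted p = 0.46) and Col1a2 at 42416 and 56573 against 38404 and 41925 (-0.30), both without overlap. Col3a1, at 18762 and 18910 against 20825 and 17922 (0.04), and Col5a1, at 2781 and 2306 against 2643 and 2406 (-0.01), overlapped, as did Col24a1. The FACIT chain Col12a1 was at 2584 and 2157 against 1756 and 1412 (-0.58 ± 0.16, adjusted p = 0.25). Chains of vessel basement membrane and walls had positive values without overlap, none past the threshold: Col4a1 at 480 and 454 against 675 and 766 (0.63 ± 0.13, adjusted p = 0.13), Col4a2 at 331 and 287 against 418 and 484 (0.54, 0.22), Col15a1 at 206 and 180 against 221 and 340 (0.53, 0.39) and Col18a1 at 211 and 144 against 247 and 249 (0.49, 0.39). The vessel list summed to 682 and 614 CPM in the WT tendon-list spots and 866 and 878 in F592A, and its part in these values was not tested.

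Other marker lists differed between the groups in the same tendon-list spots, and their summed levels did not overlap for 8 of the 10 lists. Of the arrangements of 2 against 2 sections, 33.3% leave groups apart. No share over all genes was counted for these orders of lists and genes. The tendon list, which chose the spots, summed to 10555 and 10724 CPM in WT against 8948 and 9207 in F592A, with 8 of its 9 genes below without overlap and 1, Thbs4, above. The wound fibroblast list was lower too, at 22210 and 18435 against 17697 and 14454 (4 of 9 genes below, 0 above), as was the nerve list at 478 and 400 against 330 and 367 (3 of 10 below, 0 above). Higher in F592A were the muscle list at 9605 and 9175 against 15213 and 12152 (10 of 17 above, 4 below), the sheath fibroblast list at 2283 and 2873 against 3577 and 4006 (7 of 10 above, 1 below) and the adipose list at 484 and 715 against 783 and 1170 (8 of 9 above, 1 below). The macrophage list, at 2960 and 2769 against 2989 and 3552, and the vessel list each had 7 of 11 genes above and 0 below. The epidermis list (460 and 172 against 278 and 379; 2 of 12 above, 1 below) and the cartilage list (463 and 486 against 414 and 483) overlapped.

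Of the 7 cartilage list genes 3 were below and 1 above without overlap, again with no share over all genes counted. Matn3, a matrix protein of cartilage, was at 34.0 and 35.6 against 7.48 and 4.21 CPM, Acan at 353 and 337 against 255 and 311, and Sox9, a transcription factor of cartilage, was higher in both F592A sections, at 59.1 and 103 against 148 and 165. Matn1 was at 0 and Cnmd and Snorc at 0 or 1 UMI. The parts of these lists, and of the 430 tendon-list spots of WT 2 against 76 to 159 elsewhere, in the collagen values were not tested. Without WT 2 the change of Col2a1 was -1.92 and that of Col11a2 -2.26.

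The promoter windows of the 2 type XI genes are shown as the called members that have one. Col11a1 is at chr3:114030290-114030589 and Col11a2 at chr17:34038888-34039187, both on the plus strand of GRCm38.p6, with the capitals as above.
Col11a1: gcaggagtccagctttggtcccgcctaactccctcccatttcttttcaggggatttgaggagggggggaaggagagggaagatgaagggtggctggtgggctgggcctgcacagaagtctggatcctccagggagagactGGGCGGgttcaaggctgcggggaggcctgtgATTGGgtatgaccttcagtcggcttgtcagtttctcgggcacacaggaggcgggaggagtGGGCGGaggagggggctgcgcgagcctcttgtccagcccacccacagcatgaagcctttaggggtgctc
Col11a2: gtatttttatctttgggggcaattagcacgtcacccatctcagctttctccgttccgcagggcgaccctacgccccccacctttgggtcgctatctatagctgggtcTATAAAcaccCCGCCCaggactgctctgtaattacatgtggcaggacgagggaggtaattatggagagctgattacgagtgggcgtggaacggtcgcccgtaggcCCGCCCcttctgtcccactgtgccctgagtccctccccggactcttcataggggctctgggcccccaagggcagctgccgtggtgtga
The Col11a1 window held 2 GC boxes and 1 CCAAT and the Col11a2 window 2 GC boxes and 1 TATAAA, and AACAAT was in neither window.

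In the other 9 classes edgeR called 0 members between the groups. The share of all genes called was 0.104% in wound-fibroblast-list spots (0.056% higher and 0.048% lower), 0.198% in sheath-fibroblast-list spots (0.103% and 0.095%) and 0.168% in muscle-list spots (0.0671% and 0.101%). It was 0.219% in macrophage-list spots (0.0226% and 0.196%), 0.0173% in vessel-list spots (0.00863% in each direction) and 0 in the other 4. At an unadjusted p under 0.05 there were between 4 and 14 members per class of 24 to 36 tested, where the share of all genes was lowest in vessel-list (5.21%) and highest in Scd1- and Car3-led spots (12%). DESeq2 called 2 in muscle-list spots (Col11a1 and Col8a1), where it called 0.352% of all genes. It called 1 each in sheath-fibroblast-list (Col14a1, 0.697% of all genes), nerve-list (Col17a1, 0.168%) and Sox9- and Acan-led spots (Col8a1, 0.269%), and 0 in the rest. Without WT 1 there were 17 calls in Scd1- and Car3-led spots (11.8% of all genes), without WT 2 there were 12 in epidermis-list spots (6.99%), and without F592A 1 there were 13 in muscle-list spots (3.35%).

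Col11a1 had negative values in all 10 classes, from -0.03 in vessel-list to -1.58 in muscle-list spots, and both F592A sections were below both WT sections in 8 of them. In wound-fibroblast-list spots it was at 710 and 1055 against 590 and 414 CPM (-0.81 ± 0.23, edgeR adjusted p = 0.27), and in Sox9- and Acan-led spots at 1538 and 1350 against 1024 and 999 (-0.51 ± 0.16, adjusted p = 0.69). Col11a2 was negative in all 10 classes and Col2a1 in the 9 where it was tested. In Sox9- and Acan-led spots Col2a1 was at 40.0 and 94.4 against 36.3 and 34.5 CPM (-0.95 ± 0.36, adjusted p = 0.70) and Col11a2 at 73.8 and 154 against 45.3 and 53.5 (-1.22 ± 0.33, adjusted p = 0.65). The group difference in tendon-list spots was also tested against that in wound-fibroblast-list spots, with 0 of 13363 genes and 0 of 38 members called by edgeR and 10 members at an unadjusted p under 0.05 (6.11% of all genes). The difference of the differences was -1.36 ± 0.50 for Col2a1 (adjusted p = 0.72), -0.92 ± 0.39 for Col11a2 (0.80) and -0.35 ± 0.21 for Col11a1 (0.93), so the changes were not shown to be particular to tendon-list spots.

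**Figure D5:**
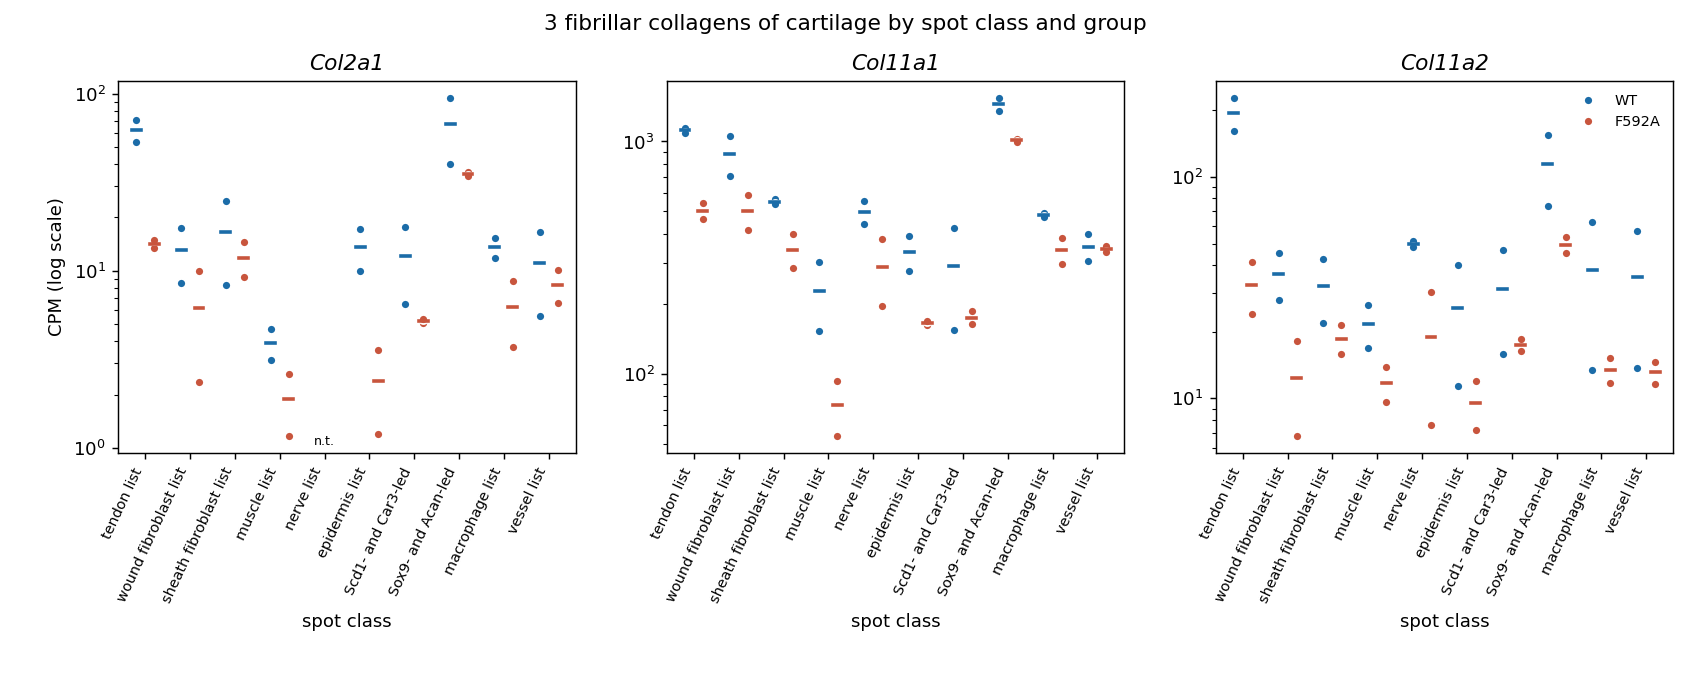
Normalised CPM (log axis) of Col2a1, Col11a1 and Col11a2 in each spot class, 1 point per section with WT in blue and F592A in red, and a bar at each group's mean. In tendon-list spots both F592A points of each gene lie well below both WT points, and Col2a1 was not tested (n.t.) in nerve-list spots.

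In muscle-list spots the members' median was -0.64 over 32 tested, against -0.00 over all genes there. It was -1.15 without F592A 1, -0.33 without F592A 2, -0.85 without WT 1 and -0.44 without WT 2. In the full data 24 members were negative and 14 at an unadjusted p under 0.05, where 8.95% of all genes were. Col1a1 was at 13202 and 21725 against 10207 and 6176 CPM (-1.09 ± 0.32, edgeR adjusted p = 0.33), Col11a1 at 153 and 302 against 93.4 and 54.0 (-1.58 ± 0.35, adjusted p = 0.18) and Col8a1, a short-chain collagen of vessel and membrane sheets, at 172 and 207 against 98.9 and 45.8 (-1.37 ± 0.32, adjusted p = 0.21). All 3 were lowest in F592A 2 and highest in WT 2, which had only 54 muscle-list spots. The wound fibroblast list in these spots followed the same order, summing to 3822 and 6396 CPM in WT and 2919 and 1392 in F592A, and its part in the collagen values was not tested.

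Genes that make, mature, bind and degrade collagen gave no calls between the groups by edgeR. In whole sections 0 of 20 genes for hydroxylation and chaperoning of new chains were called, 0 of 12 for propeptide removal and crosslinking, 0 of 10 receptors and 0 of 8 for degradation, with 2, 3, 2 and 2 at an unadjusted p under 0.05 (11.8% of all genes). Their medians were 0.02, 0.07, -0.21 and -0.43 against -0.00 over all genes. DESeq2 called P4ha2, Loxl2 and Loxl3 higher and Mmp14 and Mmp16 lower, where it called 2.58% of all genes. The genes given by section below were chosen by the smallest p between the groups in each list. Groups without overlap follow largely from that choice and lend no further support. The prolyl hydroxylase P4ha2 was at 75.0 and 83.9 against 118 and 113 CPM (0.54 ± 0.10, adjusted p = 0.20), and the crosslinking oxidases Loxl3 at 57.1 and 65.9 against 91.0 and 94.1 (0.59 ± 0.11, adjusted p = 0.20) and Loxl2 at 256 and 309 against 452 and 423 (0.63 ± 0.14, adjusted p = 0.22). These 3 were above both WT sections in both F592A sections, as were Adamts14, which removes procollagen ends (9.99 and 11.7 against 16.9 and 14.3, 0.52), and the lysyl hydroxylase Plod2 (152 and 211 against 234 and 248, 0.41), while the prolyl hydroxylase P3h2 was below (10.6 and 10.5 against 7.65 and 8.23, -0.41). The membrane protease Mmp14, which is also a wound fibroblast list gene, was at 835 and 1041 against 611 and 634 (-0.59 ± 0.16, adjusted p = 0.28), and the collagen-binding integrins Itga10 (15.2 and 14.6 against 9.47 and 10.8) and Itga2 (5.28 and 6.99 against 3.43 and 3.85) were also without overlap, as were Mmp16 (10.8 and 17.5 against 7.28 and 5.01, -1.20), the protease Fap (63.7 and 79.9 against 62.7 and 43.9, -0.43) and the integrin chain Itga11 (194 and 174 against 161 and 109, -0.44).

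In tendon-list spots the same lists had 0 calls of 20, 12, 10 and 7 genes tested. At an unadjusted p under 0.05 there were 7, 2, 3 and 2 (10.9% of all genes). DESeq2 called Mmp14 lower in these spots, where it called 1.04% of all genes. The degradation list had 0 of 7 positive values there and a median of -0.71, with Mmp14 at 812 and 1006 against 577 and 537 CPM (-0.71 ± 0.15, edgeR adjusted p = 0.13) and Mmp16 at 16.2 and 23.7 against 9.40 and 6.95 (-1.26 ± 0.27, adjusted p = 0.13). The integrin chain Itga2 was at 11.3 and 10.7 against 4.38 and 3.29 CPM (-1.48 ± 0.28, adjusted p = 0.11). P4ha2 was at 81.3 and 76.3 against 124 and 107 (0.55 ± 0.13, adjusted p = 0.18), and Plod2 at 195 and 253 against 339 and 301 (0.52 ± 0.16, adjusted p = 0.30). The groups did not overlap for any of these 5 genes, which were chosen by their small p in this comparison. The same choice holds for the genes that follow, so groups without overlap lend no further support. Among the others with the smallest p of each list, Plod1 (310 and 315 against 241 and 228, -0.41), Lox, a crosslinking oxidase that is also a wound fibroblast list gene (1397 and 1255 against 1120 and 980, -0.34), Ctsk (633 and 596 against 482 and 526, -0.29), the collagen receptors Mrc2 (418 and 475 against 379 and 314, -0.37) and Adgrg6 (5.67 and 8.10 against 3.97 and 4.02, -0.80) were lower without overlap and Loxl3 (83.2 and 83.6 against 96.3 and 115, 0.33) and Loxl2 (256 and 306 against 391 and 307, 0.31) higher, none past the threshold.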

How the data were processed

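Visium data of 4 sections were used, 2 per group, with groups taken from the labels. The authors deposited unnormalised UMI counts for every gene in every spot, made with Space Ranger 1.3.0 per the file headers, with mm10 and Seurat 3 named in the submitters' processing notes. Spots with under 500 UMIs were left out (4, 3, 3 and 3). Class scores were log2(1 + summed UMIs of the list per 10000 UMIs of the spot), standardised over all kept spots. A class was tested where at least 3 sections held at least 30 of its spots. UMIs were summed per section or class and tested with edgeR 4.0.16 on R 4.3.3 (quasi-likelihood, TMM, filterByExpr). SEs were derived by dividing a change's size by the root of its F statistic. With 2 sections per group, no exact permutation p falls under 0.33. Depth was 30154873 to 43957617 UMIs per library, where counting error matters mainly below a few CPM. Class sums are smaller, so counting error there reaches higher CPM values. The fits were tested on simulated data. Alternatives were RLE scaling, DESeq2 1.42.0, no filter, each section left out, a block by replicate number, other class limits, no muscle-list spots and, for scaling, no collagen genes. Values are given by section for called members, the 6 with the most UMIs, up to 3 leading members per class and a set of major chains, and for the 3 genes of smallest p in each of 4 pathway lists. Members and lists were chosen with earlier results of these data known. Promoter windows are from RefSeq (GRCm38.p6), and Python 3.11.15, numpy 2.4.6, pandas 2.3.3, scipy 1.17.1 and matplotlib 3.10.9 were used.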

Additional observations from a re-analysis of the deposited data

How the results depend on the processing

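The counts of collagen genes called between the groups were small and moved with the processing; the cause of each move was not tested. With no filter on low counts the calls became 1 higher and 3 lower in whole sections (2.4% of all genes) and 14 in tendon-list spots (3.53%). There were 10 each in wound-fibroblast-list (3.91%), sheath-fibroblast-list (3.39%) and muscle-list spots (2.16%). Macrophage-list spots had 5 (2.99%), nerve-list 4 (0.76%), Scd1- and Car3-led 3 (2.77%), epidermis-list 2 (1.33%) and vessel-list spots 1 (0.25%). The share over all genes thus rose in all of these too. DESeq2 called 2 lower in whole sections (2.58% of all genes), 6 in tendon-list (1.04%) and 2 in muscle-list spots (0.352%). It called 1 each in sheath-fibroblast-list (0.697%), nerve-list (0.168%) and Sox9- and Acan-led spots (0.269%).

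Leaving out 1 section at a time gave 0 to 1 higher and 0 to 3 lower calls in whole sections, and 2 to 9 in tendon-list, 0 to 7 in wound-fibroblast-list, 0 to 3 in sheath-fibroblast-list, 0 to 13 in muscle-list, 0 to 4 in nerve-list, 0 to 12 in epidermis-list, 0 to 17 in Scd1- and Car3-led, 0 to 7 in Sox9- and Acan-led, 0 to 2 in macrophage-list and 0 to 1 in vessel-list spots. The group left with 1 section was assumed to vary like the other. Most added calls came without WT 1 (in Scd1- and Car3-led, tendon-list, Sox9- and Acan-led and wound-fibroblast-list spots) or without WT 2. The latter were in epidermis-list, tendon-list, wound-fibroblast-list, Sox9- and Acan-led and Scd1- and Car3-led spots. Those of muscle-list spots came without F592A 1 or F592A 2. In each of these fits the share of all genes called rose as well, so the rise was not limited to collagen genes. In whole sections 19 of the 42 members, none called in the full data, changed sign without some section: 6 without WT 1, 7 without WT 2, 6 without F592A 1 and 4 without F592A 2, and none under the other settings. Among the members given by section between the groups, Col1a2 ranged from -0.480 to 0.155, Col6a1 from -0.297 to 0.104 and Col14a1 from -0.467 to 0.0832 (all positive only without WT 2). Col22a1 ranged from -0.744 to 0.105 (positive without WT 1), and Col4a1 from -0.0123 to 0.0668 and Col18a1 from -0.0892 to 0.344 (negative without F592A 1). Col4a2 ranged from -0.0327 to 0.0433 (negative without WT 2 and, at -0.0162, without F592A 1) and Col15a1 from -0.144 to 0.249 (negative without F592A 2). Col5a2 also changed sign without F592A 2, and Col6a2 without WT 1 and without F592A 1.

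Same-numbered sections deviated in opposite directions (correlation -0.135 over 16347 genes), so the replicate numbers were not taken to pair sections. The replicate block gave 0 members in whole sections (0.0428% of all genes), 5 in tendon-list (1.67%) and 1 in muscle-list spots (Col8a1, 0.495%), and changed no other count. A crossed block, added after seeing the data, gave 1 higher and 1 lower member in whole sections (1.16% of all genes). It gave 4 in tendon-list spots (0.797%).

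In the class tests, 198, 173, 180 and 181 of 231 calls were shared without WT 1, WT 2, F592A 1 and F592A 2, 223 under RLE scaling, 230 with no filter and 216 with 10 list UMIs. Beyond 1.5-fold, the counts moved to 2 higher in sheath-fibroblast-list and 1 in muscle-list spots with a score limit of 1.5, 4 lower in nerve-list spots with 10 list UMIs and 1 higher in Scd1- and Car3-led spots under RLE. Without 1 section they ranged from 7 to 10 lower in tendon-list, 3 to 9 higher and 3 to 5 lower in sheath-fibroblast-list, 2 to 4 higher in muscle-list, 0 to 15 lower in nerve-list (15 without WT 1, 0 without WT 2, 2 without either F592A section), 0 to 2 higher in Scd1- and Car3-led, 2 to 8 lower in Sox9- and Acan-led and 5 to 15 lower in vessel-list spots (5 without WT 1 or WT 2, 9 without F592A 1). The score limit of 1.5 was not run for groups within tendon-list, wound-fibroblast-list, sheath-fibroblast-list or muscle-list spots, for the tendon-list and wound-fibroblast-list class tests or for the test of their difference, where a section kept only 0 to 27 spots. The 7 chain ratios kept their sign without muscle-list spots and without the UMI minimum. In whole sections depth limits mainly the genes under a few CPM. In class sums, which are smaller, it also limits genes at higher CPM.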

Other observations

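The counts of some low collagen genes lay mostly in 1 section. Col25a1, a membrane-spanning chain found in neurons and developing muscle, had 100 of its 125 UMIs in WT 1, against 8 in WT 2, 6 in F592A 1 and 11 in F592A 2, and Col26a1 had 162 of 297 there. Col28a1 had 86 of 167 UMIs in WT 1, the section with 287 of the 499 nerve-list spots. The genes are spread over 15 chromosomes as annotated, with at most 6 on one. Col3a1 and Col5a2 are neighbours on chromosome 1 (45311538 to 45349706 and 45374331 to 45503282 in GRCm38.p6) and both were called higher in wound-fibroblast-list spots (0.51 and 0.92), while of the pair only Col3a1 was called higher in sheath-fibroblast-list and macrophage-list spots.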
